A study of Arabidopsis thaliana with 9 samples.

Results

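RNA of 9 regulators of the iron-deficiency response was followed across green 2cpab, albino 2cpab and wild-type seedlings of Arabidopsis thaliana. They are the bHLH Ib transcription factors bHLH38, bHLH39, bHLH100 and bHLH101, the IRON MAN peptides IMA1, IMA2 and IMA3, the transcription factor PYE (POPEYE) and the ubiquitin ligase BTS (BRUTUS). They were picked by locus identifier, 9 of the 32833 genes measured, with their levels in these libraries already known. Their levels and differences are therefore given as a description and carry no test.

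Plants that run short of iron reduce ferric iron at the root surface and import the ferrous ion, and the genes for this are switched on by the root factor FIT acting in pairs with bHLH Ib proteins. The bHLH Ib genes are themselves switched on by bHLH proteins of another clade, IVc, which BTS marks for degradation. IMA peptides bind BTS and so shield those activators, and PYE represses several genes of iron transport and storage. Both bHLH Ib and IMA transcripts are widely used as markers of iron deficiency, in roots and in leaves.

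Poly(A) RNA was sequenced from whole seedlings 6 days old, raised on MS medium with 0.5% sucrose under constant illumination at 125 µE m-2 s-1, in 3 libraries per group. The groups were green seedlings of the 2cpab mutant, albino seedlings of the same mutant, and Col-0 wild-type seedlings. The name 2cpab comes from 2CPA and 2CPB, nuclear genes of the chloroplast 2-Cys peroxiredoxins, which reduce hydrogen peroxide; the labels give no alleles and do not say what made a seedling green or albino. Nor do they say whether the replicates were grown apart; the p-values measure spread between these libraries, part of which may be technical. Levels are given as scaled FPKM, a level per transcript length in which every library has the same 75th percentile. Differences are on the log2(scaled FPKM + 1) scale, with their standard error, and understate changes of weak genes.

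The targeted genes were lower in all mutant libraries, but green replicate 1 stood apart. 2CPA was at 35.8, 267 and 256 in green replicates 1 to 3, 24.2, 21.4 and 25.4 in albino replicates and 989, 763 and 889.7 in wild-type replicates. 2CPB was at 7.21, 48.6 and 54.2 in green, 1.82, 2.89 and 1.52 in albino and 237, 174 and 188 in wild-type libraries. Green replicate 1 was thus closer to the albino libraries than to the other green libraries for both genes, whereas its levels of all 9 regulators lay above those of every albino and wild-type library. The summed level of 14 root marker genes was 97.1 to 129 in green, 166 to 187 in albino and 112, 210.0 and 146 in wild-type replicates 1 to 3, so root RNA was present in every library. Summed over 7 markers of leaves and cotyledons, the level was 83.6 to 101 in green, 62.0 to 66.1 in albino and 66.8 to 84.1 in wild-type libraries. These are bulk samples, in which fewer cells of a type and less RNA per cell cannot be told apart. Each library held 22926 to 23963 genes above 0, and absolute depth is unknown because the files hold no read counts.

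The members fall on chromosomes 1, 2, 3 and 5, and 4 of them lie in pairs of neighbours. Positions and sequences come from the RefSeq TAIR10.1 genome and annotation. On the minus strand, bHLH38 (AT3G56970, chr3:21084035-21085245) and bHLH39 (AT3G56980, chr3:21086390-21087710) are 1144 bases apart, and on the plus strand IMA2 (AT1G47395, chr1:17382998-17383830) and IMA1 (AT1G47400, chr1:17385707-17386485) are 1876 bases apart. The other 5 genes stand alone: bHLH100 (AT2G41240, chr2:17198037-17199454, minus), bHLH101 (AT5G04150, chr5:1138410-1139633, minus), IMA3 (AT2G30766, chr2:13107583-13110480, plus), PYE (AT3G47640, chr3:17567126-17569394, plus) and BTS (AT3G18290, chr3:6273966-6280562, plus). All 9 are protein coding; the annotation describes the 3 IMA genes as uncharacterized proteins, and the IMA names are those by which they were chosen.

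The coding sequences of the IMA genes are shown because IMA1 and IMA2 are near copies, so their reads could be confused. They are 153 bases long in IMA1 and IMA2 and 144 in IMA3, each within 1 exon. The first pair of lines gives the whole coding sequences of IMA1 (chr1:17385818-17385970) and IMA2 (chr1:17383117-17383269), with the 17 bases at which they differ in capitals; they are identical at 136 of 153 positions.
IMA1: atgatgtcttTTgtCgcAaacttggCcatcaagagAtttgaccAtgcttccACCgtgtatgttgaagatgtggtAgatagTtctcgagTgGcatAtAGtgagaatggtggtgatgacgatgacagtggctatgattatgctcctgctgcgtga
IMA2: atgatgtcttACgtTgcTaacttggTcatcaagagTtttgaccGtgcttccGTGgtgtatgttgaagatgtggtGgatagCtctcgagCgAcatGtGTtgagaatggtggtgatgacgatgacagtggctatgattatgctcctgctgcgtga
The last 51 bases, which end in the stop codon, are the stretch that IMA3 shares. Here IMA1 and IMA2 are identical, and the 34 bases that all 3 genes have in common are in capitals.
IMA1 end: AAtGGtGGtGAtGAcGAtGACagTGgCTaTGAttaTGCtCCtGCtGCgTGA
IMA3 end: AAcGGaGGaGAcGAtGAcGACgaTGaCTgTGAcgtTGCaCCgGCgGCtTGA
Of the 50-base windows along the transcript, 10 of 730 of IMA1 (1.37%) and 10 of 784 of IMA2 (1.28%) also occur elsewhere in the genome, and none do for the other 7 genes. Exact repeats of 50 bases therefore touch little of the IMA1 and IMA2 transcripts. Stretches that match with a few differences were not counted. How the authors' counting treated reads with several matches is not given in the sources used here.

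The stretch of 250 bases before each gene's start was searched for the palindrome CACGTG, the G-box that many bHLH proteins bind. It was in 3 of the 9 stretches and in 6.49% of 27443 promoters of that length in the genome. The matches are shown in capitals, on the strand of the gene, 5′ to 3′. Their first base is 97 bases upstream of the start in bHLH38 (window chr3:21085246-21085495, minus) and 91 in bHLH100 (chr2:17199455-17199704, minus), and 146, 124 and 70 in BTS (chr3:6273716-6273965, plus).
bHLH38 promoter: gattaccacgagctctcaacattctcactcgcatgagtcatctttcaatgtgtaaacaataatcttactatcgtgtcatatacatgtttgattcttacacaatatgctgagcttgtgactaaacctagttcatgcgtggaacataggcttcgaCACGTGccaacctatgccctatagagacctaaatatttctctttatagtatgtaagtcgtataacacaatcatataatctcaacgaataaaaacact
bHLH100 promoter: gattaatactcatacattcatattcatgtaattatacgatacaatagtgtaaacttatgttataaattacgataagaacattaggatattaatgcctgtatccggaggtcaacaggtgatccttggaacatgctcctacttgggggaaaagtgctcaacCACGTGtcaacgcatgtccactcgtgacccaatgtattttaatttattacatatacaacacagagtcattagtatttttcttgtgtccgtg
BTS promoter: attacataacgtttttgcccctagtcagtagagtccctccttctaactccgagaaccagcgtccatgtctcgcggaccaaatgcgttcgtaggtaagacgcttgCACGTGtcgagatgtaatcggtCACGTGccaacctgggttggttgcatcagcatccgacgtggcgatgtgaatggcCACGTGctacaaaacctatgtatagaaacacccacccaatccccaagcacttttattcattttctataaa
The broader E-box CANNTG, which includes CACGTG, was in 7 of the 9 stretches and in 55.3% of all promoters. A match describes the letters of these windows; binding was not measured.

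RNA of the 4 bHLH Ib factors was far higher in green 2cpab than in wild-type seedlings. In the deposited scaling it was, for all but bHLH101, lower in every albino library than in any wild-type library. With each library scaled to its sum (TPM), that held for bHLH38 and bHLH100 but not for bHLH39. bHLH100 was at 182, 216 and 201 in green, 4.63, 4.11 and 2.33 in albino and 14.3, 38.0 and 21.9 in wild-type replicates 1 to 3. The 3 groups did not overlap, and wild-type replicate 2 was the highest of the wild type. The means were 199.9 ± 17.1 in green, 3.69 ± 1.21 in albino and 24.7 ± 12.1 in wild-type libraries (SD, n = 3 each). Green seedlings thus had 8.08 times the wild-type mean and albino seedlings 14.9% of it, with differences of 3.07 ± 0.30 and -2.38 ± 0.30 on the log2 scale. Between the mutants it was lower in albino by -5.45 ± 0.30, the second lowest value among the 19731 genes tested.

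bHLH38 was at 106, 109 and 105 in green, 6.51, 4.18 and 4.34 in albino and 9.87, 18.4 and 15.6 in wild-type replicates. The green libraries lay within a narrow range far above the rest, and the albino libraries lay below the lowest wild-type library. Its green mean was 7.30 times the wild-type mean and its albino mean 34.2% of it, differences of 2.83 ± 0.21 and -1.36 ± 0.21. Its neighbour bHLH39, named with it as a partner of FIT, was at 79.3, 85.3 and 80.97 in green, 7.01, 5.91 and 6.34 in albino and 8.71, 17.7 and 11.2 in wild-type replicates. The order of the groups was the same, with a smaller gap between albino and wild-type libraries. The green mean was 6.54 times the wild-type mean and the albino mean 51.3% of it, differences of 2.67 ± 0.19 and -0.81 ± 0.19.

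bHLH101 had the lowest level of the 4 factors in green and in wild-type libraries. It was at 43.8, 37.9 and 37.0 in green, 3.50, 3.03 and 3.61 in albino and 3.26, 7.10 and 4.26 in wild-type replicates. Green libraries again stood far above the others, but albino and wild-type libraries overlapped, since wild-type replicate 1 lay between the albino values. Its green mean was 8.12 times the wild-type mean, a difference of 2.84 ± 0.20, and the albino difference from wild type was -0.37 ± 0.20, or 0.0054 with each library scaled to its sum (TPM).

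The make-up of the bHLH Ib pool also differed between groups. The sum of the 4 transcripts was 428 ± 18.8 in green, 18.5 ± 2.75 in albino and 56.8 ± 22.8 in wild-type libraries. bHLH100 made up 46.6% ± 2.08 of that sum in green, 19.8% ± 5.12 in albino and 42.6% ± 3.79 in wild-type libraries. In albino seedlings bHLH39 took the largest share instead, 34.9% ± 2.94, against 19.1% ± 0.142 in green and 22.3% ± 1.58 in wild-type seedlings. The share of bHLH101 was 9.27% ± 1.19 in green, 18.5% ± 2.88 in albino and 8.61% ± 0.513 in wild-type libraries. That of bHLH38 overlapped between all groups, at 24.98% ± 0.758, 26.8% ± 2.95 and 26.5% ± 3.48 in green, albino and wild-type libraries.

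**Figure D1:**
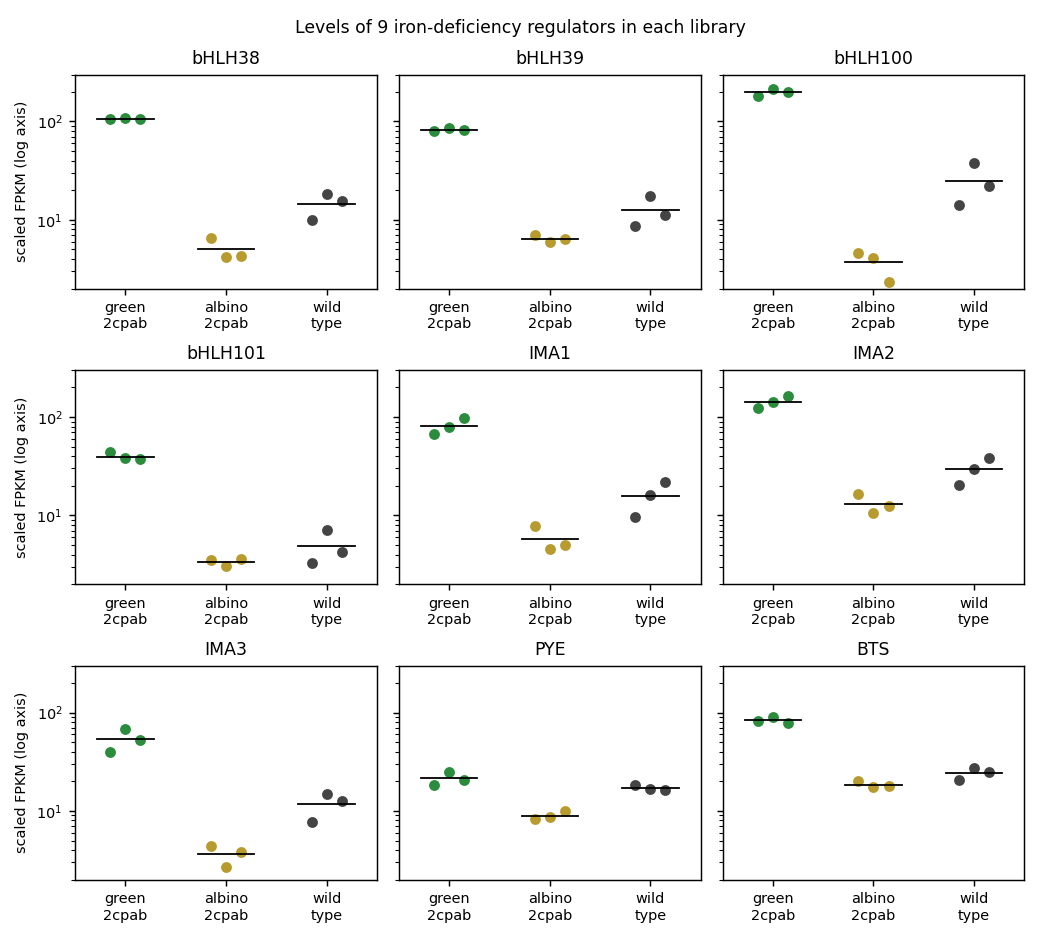
Scaled FPKM (log axis) of the 9 regulators in each library, 3 per group in replicate order, with a line at the group mean. Green 2cpab libraries lie highest in all 9 panels, and PYE shows the smallest gap between green (mean 21.4) and wild-type (mean 17.0) libraries.

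The IMA transcripts, which code for the short peptides that bind BTS, followed the same order of groups. IMA2 had the highest level of the 3, at 124, 142 and 164 in green, 16.5, 10.6 and 12.3 in albino and 20.5, 29.4 and 38.5 in wild-type replicates. The groups did not overlap. IMA1 was at 66.8, 78.8 and 98.3 in green, 7.81, 4.50 and 4.96 in albino and 9.55, 16.3 and 21.9 in wild-type replicates, again with no overlap. IMA3 was at 39.7, 68.3 and 53.2 in green, 4.38, 2.67 and 3.798 in albino and 7.79, 14.9 and 12.5 in wild-type replicates. Its groups did not overlap either. Under TPM the albino libraries of IMA1 and IMA2 did overlap with those of the wild type, whereas those of IMA3 did not.

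Green means were 5.11 times the wild-type mean for IMA1, 4.87 times for IMA2 and 4.57 times for IMA3. Albino means were 36.2%, 44.5% and 30.8% of the wild-type mean for IMA1, IMA2 and IMA3. On the log2 scale the green differences from wild type were 2.34 ± 0.28, 2.28 ± 0.22 and 2.11 ± 0.25, and the albino differences were -1.28 ± 0.28, -1.09 ± 0.22 and -1.44 ± 0.25. The 3 genes differed from each other by less than these errors in green seedlings. The sum of the 3 transcripts was 278 ± 43.1 in green, 22.5 ± 5.59 in albino and 57.1 ± 17.8 in wild-type libraries. The level of IMA2 over that of IMA1 was 1.78 ± 0.10 in green, 2.31 ± 0.19 in albino and 1.90 ± 0.21 in wild-type libraries. Green and albino libraries did not overlap in this ratio while both overlapped with the wild type.

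PYE, a bHLH repressor of iron transport and storage genes, differed least in level between green and wild-type libraries. It was at 18.6, 24.9 and 20.8 in green, 8.23, 8.67 and 9.90 in albino and 18.2, 16.5 and 16.3 in wild-type replicates. The lowest green library lay just above the highest wild-type library, and all albino libraries lay well below both groups. The green mean was 1.26 times the wild-type mean, a difference of 0.31 ± 0.12, and the albino mean was 52.6% of it, a difference of -0.86 ± 0.12.

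BTS, the ligase that IMA peptides bind, was at 82.5, 89.5 and 78.4 in green, 20.4, 17.3 and 17.7 in albino and 20.8, 27.5 and 24.7 in wild-type replicates. Green libraries stood well apart, while the highest albino library lay just under the lowest wild-type library. The green mean was 3.43 times the wild-type mean, a difference of 1.75 ± 0.11, and the albino mean was 76.0% of it, a difference of -0.37 ± 0.11, or 0.079 under TPM. The ratio of BTS to PYE was 3.94 ± 0.449 in green, 2.09 ± 0.351 in albino and 1.44 ± 0.269 in wild-type libraries. The summed bHLH Ib level over that of BTS was 5.14 ± 0.243 in green, 0.998 ± 0.0626 in albino and 2.28 ± 0.620 in wild-type libraries, and the summed IMA level over BTS was 3.35 ± 0.619, 1.21 ± 0.192 and 2.33 ± 0.575 in the same groups. The bHLH Ib ratio to BTS did not overlap between groups, whereas the IMA ratio of green libraries overlapped with that of the wild type.

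The order of the 9 levels was not the same in each group. In all 3 green libraries bHLH100 came first, followed by IMA2 and then bHLH38, and PYE came last. BTS, bHLH39 and IMA1 came next in green, with means of 83.5 ± 5.64, 81.8 ± 3.07 and 81.3 ± 15.9 that did not differ beyond their spread, and IMA3 and bHLH101 changed places between libraries. In all 3 albino libraries BTS came first, followed by IMA2 and then PYE, and the lowest 3 means, those of bHLH100, IMA3 and bHLH101, lay within their spread. In wild-type libraries BTS, IMA2 and bHLH100 each came first in 1 library, and bHLH101 came last in all 3. By its group mean, bHLH100 stood above 97.5% of tested genes in green, 24.2% in albino and 77.5% in wild-type seedlings.

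As a list, all 9 genes were higher in every green library than in any wild-type library, where 12.0% of tested genes were and 11.8% were lower. Their median difference was 2.34, against 0.02 over all tested genes. Between albino and wild-type libraries 8 of 9 were lower without overlap, where 24.4% of tested genes were and 31.5% were higher, with a median of -1.09 against 0.07. Between albino and green libraries 9 of 9 were lower without overlap, where 23.8% of tested genes were and 29.5% were higher, with a median of -3.48 against 0.05. The comparisons share libraries, and since the genes were chosen with these values known, nothing is read from the counts. Scaling each library to its sum (TPM) moved the median of all genes in albino against wild-type libraries to 0.50 and the count of members to 4 of 9 (bHLH38, bHLH100, IMA3 and PYE), with bHLH101 at 0.0054 and BTS at 0.079. The counts in the other comparisons were 9 of 9 under TPM too. Without green replicate 1 the median differences were 2.47 in green against wild-type and -3.51 in albino against green libraries. Leaving out a library cannot make separate groups overlap, so both counts had to stay at 9 of 9.

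**Figure D2:**
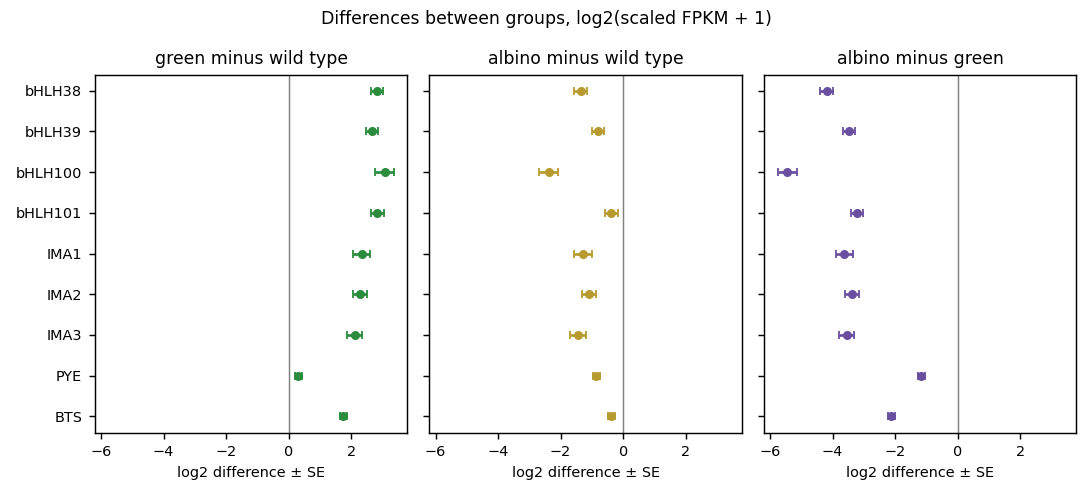
Differences between group means for the 9 regulators on the log2(scaled FPKM + 1) scale, in 3 panels (green minus wild type, albino minus wild type, albino minus green), with bars of ± 1 SE from the limma fit over 9 libraries. bHLH100 has the widest range, from 3.07 in green minus wild type to -5.45 in albino minus green, and PYE lies closest to 0 in green minus wild type at 0.31.

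The summed bHLH Ib level varied most among the wild-type libraries, and there it followed the order of the root markers, which it did not in green or albino libraries. An order over 3 libraries is a description, too small to show a link. The bHLH Ib sum was 36.1, 81.2 and 52.9 in wild-type replicates 1 to 3, lowest and highest in the libraries in which the root marker sum was lowest and highest. In green replicates 1 to 3 it was 411, 448 and 425 with root marker sums of 129, 112 and 97.1, and in albino replicates 21.6, 17.2 and 16.6 with sums of 166, 187 and 177. The ratio of the bHLH Ib sum to the root marker sum was 3.18 to 4.37 in green, 0.0920 to 0.131 in albino and 0.323 to 0.387 in wild-type libraries. The groups did not overlap in this ratio. For green libraries that was fixed in advance, as their bHLH Ib sums lay too far above the rest for these root marker sums to close the gap. The IMA sum was 37.8, 60.6 and 72.9 in the same wild-type replicates and did not follow the order of the root markers. Of the single marker lists, root hair markers (5 tested) rose in albino against wild-type seedlings for EXPA7 and EXPA18 and in albino against green seedlings for 4 genes. Of 5 tested endodermis markers, 2 rose in albino against green seedlings, and 1 of 3 tested meristem markers rose in albino against each other group. In albino seedlings 3 of 7 leaf markers fell and 1 rose against wild type, and 4 fell against green. Over all tested genes, 23.4% were called higher and 20.1% lower in albino against wild-type seedlings. In albino against green seedlings these shares were 18.5% and 17.7%. In green against wild-type seedlings 0 of 20 tested markers passed limma at adjusted p < 0.05. An unadjusted p under that value was found for 8, a share not set against that of all genes. The 5 root hair markers had differences of -0.61 to -0.12 there and the 5 endodermis markers of -0.90 to -0.27, all lower in green seedlings. Those of the tested meristem and leaf markers ran from -0.10 to 0.38 and from -0.39 to 0.32. ESB1, an endodermis gene, was listed at 0 in green replicates 2 and 3 and wild-type replicate 3, and PLT2, a meristem gene, did not pass the filter. The part of tissue make-up in the regulators' levels was not tested.

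Neighbouring genes were examined because some members overlap a gene on the other strand, and the strand setting of the authors' counting is not given in the sources used here. bHLH38 shares 386 bases with PIP5K4, bHLH101 shares 79 bases with GLU1, and IMA3 shares 639 bases with AT2G30760 and 572 with CYP71A13. PIP5K4 was at 2.69 in green, 2.28 in albino and 2.16 in wild-type libraries on average, far under bHLH38 in green seedlings. GLU1, a ferredoxin-dependent glutamate synthase, was at 236 in green, 86.0 in albino and 291 in wild-type libraries on average. The means of bHLH101 were 39.6, 3.38 and 4.87 in the same groups, far under those of GLU1. AT2G30760 and CYP71A13 had mean levels below 1 in each group. Whether overlapping genes shared reads was not tested. Of 18 flanking or overlapping genes, 11 were tested, and 1 rose in green against wild-type seedlings: EDA7, which lies 316 bases from bHLH39, with a difference of 0.64 ± 0.12 (adjusted p = 0.0106, limma). Over all tested genes, 3.71% were called higher and 5.16% lower in this comparison. In albino against wild-type seedlings 3 rose and 3 fell, where 23.4% and 20.1% of all tested genes were called higher and lower. In albino against green seedlings 3 rose and 3 fell, where 18.5% and 17.7% were.

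Past IMA1, 2503 bases away, lies the noncoding RNA gene AT1G07367 (chr1:17388989-17389500, plus), which was named by the likeness of its profile to that of the bHLH Ib and IMA genes. The gene next to IMA1, MIR5664 (AT1G07357, 309 bases away), lies between them and averaged 0.313 in green, 0.104 in albino and 0.0876 in wild-type libraries, below the filter. AT1G07367 was at 38.2, 54.9 and 62.9 in green, 2.85, 2.26 and 2.21 in albino and 5.45, 7.53 and 8.37 in wild-type replicates, with no overlap between groups. A further noncoding RNA gene, AT1G07373 (chr1:17392374-17393026, minus), lies 5888 bases from IMA1; it was chosen after its values were seen. It was at 33.2, 20.7 and 56.9 in green, 1.36, 1.37 and 2.15 in albino and 2.69, 3.23 and 9.69 in wild-type replicates. Differences from wild type were 2.69 ± 0.19 in green and -1.23 ± 0.19 in albino seedlings for AT1G07367, and 2.67 ± 0.42 and -1.08 ± 0.42 for AT1G07373. The next protein-coding gene, AT1G47410, 7586 bases from IMA1, did not pass the test in green against wild-type seedlings (-0.09 ± 0.12, adjusted p = 0.734, limma). On the other side of IMA2, AT1G47390 was at or near 0 in all libraries.

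**Figure D3:**
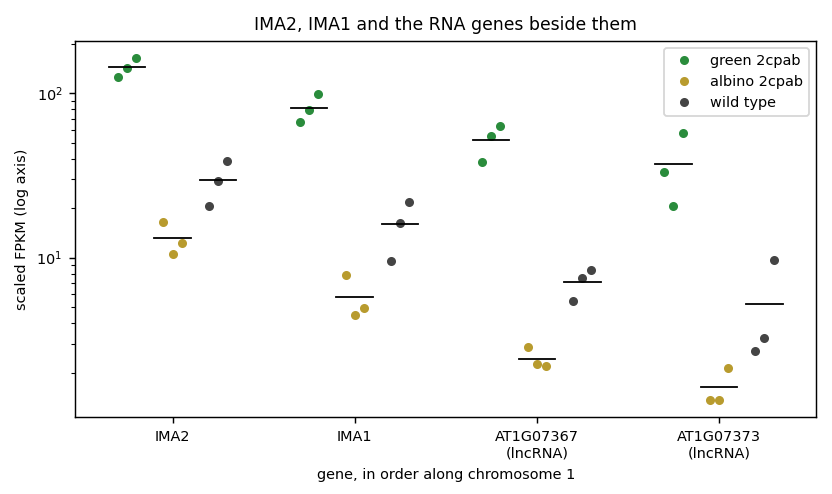
Scaled FPKM (log axis) of IMA2, IMA1 and the noncoding RNA genes AT1G07367 and AT1G07373, in their order along the chromosome, with a point for each library and a line at each group mean. Green 2cpab libraries lie above the albino and wild-type libraries in all 4 genes, and wild-type replicate 3 of AT1G07373 stands apart at 9.69.

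The genes with the profile most like that of the bHLH Ib and IMA members were sought among 14397 tested genes. The measure was Pearson's r with the mean profile of those 7 members over the 9 libraries. It is a description, as the libraries fall into 3 groups and the genes share libraries. The members themselves had r of 0.970 to 0.999, BTS 0.986 and PYE 0.851. The 8 closest genes were ZIF1 (0.997), a vacuolar transporter of nicotianamine, FRO3 (0.997), a mitochondrial ferric-chelate reductase, ORG1 (AT5G53450, 0.996), AT1G07367 (0.994), the methyl esterase MES12 (0.992), the uncharacterized AT2G14247 (0.989), the defensin-like AT1G13609 (0.986) and AT1G12030 (0.986), which holds a domain of unknown function.

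These 8 genes differed in how far they moved. AT1G13609 was at 128, 167 and 180.4 in green, 11.9, 5.66 and 8.51 in albino and 19.5, 27.6 and 41.0 in wild-type replicates. AT2G14247 was at 61.8, 93.0 and 66.2 in green, 7.87, 5.28 and 6.50 in albino and 14.5, 23.4 and 18.5 in wild-type replicates. Their green means were 5.40 times (AT1G13609) and 3.92 times (AT2G14247) the wild-type mean, against 4.57 to 5.11 times for the IMA genes. MES12, with the smallest range, was at 8.005, 8.95 and 8.93 in green, 4.99, 4.67 and 4.57 in albino and 5.58, 6.03 and 5.69 in wild-type replicates. ORG1 averaged 147 ± 13.2 in green, 24.2 ± 3.90 in albino and 47.9 ± 11.5 in wild-type libraries (n = 3 each).

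Of 55 other iron genes in 4 lists, 51 were tested. The lists were chosen with earlier results of these data known, so the counts by list are a description. In green against wild-type seedlings 8 rose, 12 fell and 31 did not pass (limma, adjusted p < 0.05), and without green replicate 1, 7 rose and 11 fell. The 8 include MYB72, which passed the filter through its green libraries alone and was not tested without green replicate 1. Over all tested genes, 3.71% were called higher and 5.16% lower in this comparison with all libraries. In albino against wild-type seedlings 3 rose, 31 fell and 17 did not pass, where 23.4% of all tested genes were called higher and 20.1% lower. In albino against green seedlings 5 rose, 30 fell and 16 did not pass, where 18.5% and 17.7% of all tested genes were called higher and lower; without green replicate 1, 5 rose and 27 fell. Under TPM, with 12664 genes called higher and 2151 lower in albino against wild-type seedlings (4613 and 3968 in the deposited scaling), 9 of these iron genes rose and 21 fell. In albino against green seedlings, where TPM called 12290 higher and 1885 lower (3648 and 3483 in the deposited scaling), 13 rose and 23 fell.

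Among 14 other tested regulators, the clade IVc activators ILR3, bHLH34, bHLH104 and bHLH115, which act upstream of the bHLH Ib genes, had differences of -0.094 (ILR3) to 0.073 (bHLH34) in green against wild-type seedlings and did not pass the test (adjusted p = 0.586 to 0.933). bHLH104 was at -0.058 without wild-type replicate 3. In albino against wild-type seedlings bHLH104 rose (0.50 ± 0.09, adjusted p = 0.00159) and ILR3 fell (-0.28 ± 0.08, adjusted p = 0.0232). There bHLH34 and bHLH115 did not pass (adjusted p = 0.367 and 0.936). FIT, the partner of the bHLH Ib proteins, was at 8.69, 4.05 and 7.36 in green, 3.61, 4.68 and 2.89 in albino and 3.52, 5.91 and 4.59 in wild-type replicates, and its groups overlapped. Its difference from wild type was 0.41 ± 0.25 in green (adjusted p = 0.392) and -0.26 ± 0.25 in albino seedlings (adjusted p = 0.430). Of these regulators 1 rose in green seedlings, the root transcription factor MYB72, where it was at 3.39, 1.59 and 2.32, against 0.198, 0.869 and 0.251 in the wild type (1.25 ± 0.22, adjusted p = 0.00813). It was listed at 0 in all 3 albino libraries. MYB72 passed the filter on low values through its green libraries alone, so it could be tested only because it was high there. With no filter its adjusted p was 0.0148, and with any green library left out it was not tested. AT2G22760 and AT4G37850, both annotated as bHLH superfamily proteins, fell in green (-1.56 ± 0.32, adjusted p = 0.0165; -0.99 ± 0.24, adjusted p = 0.0301) and in albino seedlings (-2.90 ± 0.32, adjusted p = 8.36e-05; -1.23 ± 0.24, adjusted p = 0.00225). Their calls in green were lost without wild-type replicate 3 (adjusted p = 0.0643 and 0.0809) or green replicate 2 (0.0583 and 0.0999), and that of AT4G37850 also without green replicate 1 (0.0814). With a pseudocount of 0.1 that of AT2G22760 was lost (0.0540), and that of AT4G37850 with no filter (0.0642), with TPM (0.0588) or with only the 6 libraries compared (0.0752). In albino seedlings 6 regulators fell in all, MYB10 (-1.47 ± 0.22, adjusted p = 0.000484) and AT1G74770 (-0.90 ± 0.15, adjusted p = 0.000910), annotated as a zinc ion binding protein, among them. MYB10 also fell in albino against green seedlings (-2.23 ± 0.22, adjusted p = 5.59e-05).

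Root uptake genes, the targets of FIT with the bHLH Ib proteins, mostly did not pass the test in green seedlings. Of 13 tested, 1 rose in green against wild-type seedlings, the vacuolar zinc transporter MTP3 (0.77 ± 0.14, adjusted p = 0.00828). IRT1, the root importer of ferrous iron, was at 112, 93.8 and 116 in green, 9.80, 13.4 and 6.52 in albino and 43.6, 78.7 and 68.9 in wild-type replicates. Its green libraries lay above the wild type without overlap, but the difference did not pass (0.78 ± 0.26, adjusted p = 0.0994), and FRO2, the root ferric-chelate reductase, likewise had 0.79 ± 0.30 (adjusted p = 0.156). In albino seedlings 7 root uptake genes fell, with IRT1 at -2.58 ± 0.26 (adjusted p = 3.94e-05) and FRO2 at -2.96 ± 0.30 (adjusted p = 4.57e-05). CYP82C4, which makes the coumarin sideretin, was at 0.668, 1.16 and 0.763 in albino and 27.7, 54.1 and 44.9 in wild-type replicates (-4.49 ± 0.22, adjusted p = 1.77e-06). AT3G12900, annotated as an oxygenase that depends on 2-oxoglutarate and ferrous iron, was listed at 0 in all 3 albino libraries, with 5.96, 10.01 and 9.59 in the wild type. In albino against green seedlings 9 of the 13 fell and 1 rose. The root marker sum of 166 to 187 in the albino libraries, given above, lay within the range of the wild type and above that of green libraries. The part of tissue make-up in the levels of the root uptake genes was not tested.

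Genes of iron transport and chelation held most of the rises in green seedlings, with 6 of 16 tested higher and 3 lower. NAS4, a nicotianamine synthase, was at 34.5, 24.1 and 24.97 in green, 13.998, 10.8 and 9.42 in albino and 6.85, 5.77 and 5.54 in wild-type replicates. It rose in green (2.02 ± 0.17, adjusted p = 0.000315) and also in albino seedlings (0.80 ± 0.17, adjusted p = 0.00341). OPT3, a phloem transporter that bears on iron signalling from shoot to root, was at 137, 169 and 121 in green, 51.4, 39.8 and 47.4 in albino and 38.4, 52.2 and 46.9 in wild-type replicates. It rose in green seedlings (1.61 ± 0.16, adjusted p = 0.000651) and had a difference of 0.01 ± 0.16 in albino seedlings (adjusted p = 0.952), or 0.48 under TPM, where it was called higher (adjusted p = 0.0158). ZIF1 and FRO3 rose in green seedlings by 1.45 ± 0.12 (adjusted p = 0.000315) and 1.22 ± 0.09 (adjusted p = 0.000248), and NAS1 and NRAMP4 were the others that rose. The NAS1 call (0.39 ± 0.10, adjusted p = 0.0327) was lost without wild-type replicate 1 or 3, without each green replicate in turn or without albino replicate 2 (adjusted p = 0.0561 to 0.105).

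Of the same 16 genes, 11 fell in albino against wild-type seedlings and 12 in albino against green seedlings, with 1 higher in each. NAS2, a root nicotianamine synthase, was at 0.415, 0.517 and 0.329 in albino and 10.1, 8.15 and 8.0025 in wild-type replicates (-2.77 ± 0.16, adjusted p = 2.63e-06). FRO6, a reductase of green tissue, fell by 1.90 ± 0.28 (adjusted p = 0.000477), FRO7, that of the chloroplast, by 1.29 ± 0.25 (adjusted p = 0.00259) and YSL2, a metal-nicotianamine transporter, by 1.04 ± 0.11 (adjusted p = 4.67e-05). NAS2, FRO6 and FRO7 did not pass in green against wild-type seedlings.

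Of 8 tested storage genes, 7 fell in green against wild-type seedlings and 7 in albino against wild-type seedlings, comparisons that share the wild-type libraries. The ferritin FER2 did not pass in either. FER1, a plastid ferritin, was at 97.4, 137 and 91.9 in green, 83.9, 84.9 and 79.7 in albino and 395, 320.4 and 283 in wild-type replicates (-1.61 ± 0.16, adjusted p = 0.000722, in green; -1.98 ± 0.16, adjusted p = 1.49e-05, in albino). The groups of both mutants lay far below the wild type. NEET, an iron-sulfur protein, fell in green (-1.73 ± 0.26, adjusted p = 0.00355) and further in albino seedlings (-3.74 ± 0.26, adjusted p = 6.04e-06), with a difference between the mutants of -2.02 ± 0.26 (adjusted p = 0.000284). FER4 fell by 1.41 ± 0.14 in green (adjusted p = 0.000651), FER3 by 2.17 ± 0.15 in albino seedlings (adjusted p = 6.82e-06), and the vacuolar iron transporter-like VTL5 by 1.24 ± 0.15 in green (adjusted p = 0.00141) and VTL1 by 2.14 ± 0.15 in albino seedlings (adjusted p = 5.78e-06). Between albino and green seedlings 4 storage genes fell, and FER1 (-0.37 ± 0.16, adjusted p = 0.112) and FER4 (0.21 ± 0.14, adjusted p = 0.263) did not pass.

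**Figure D4:**
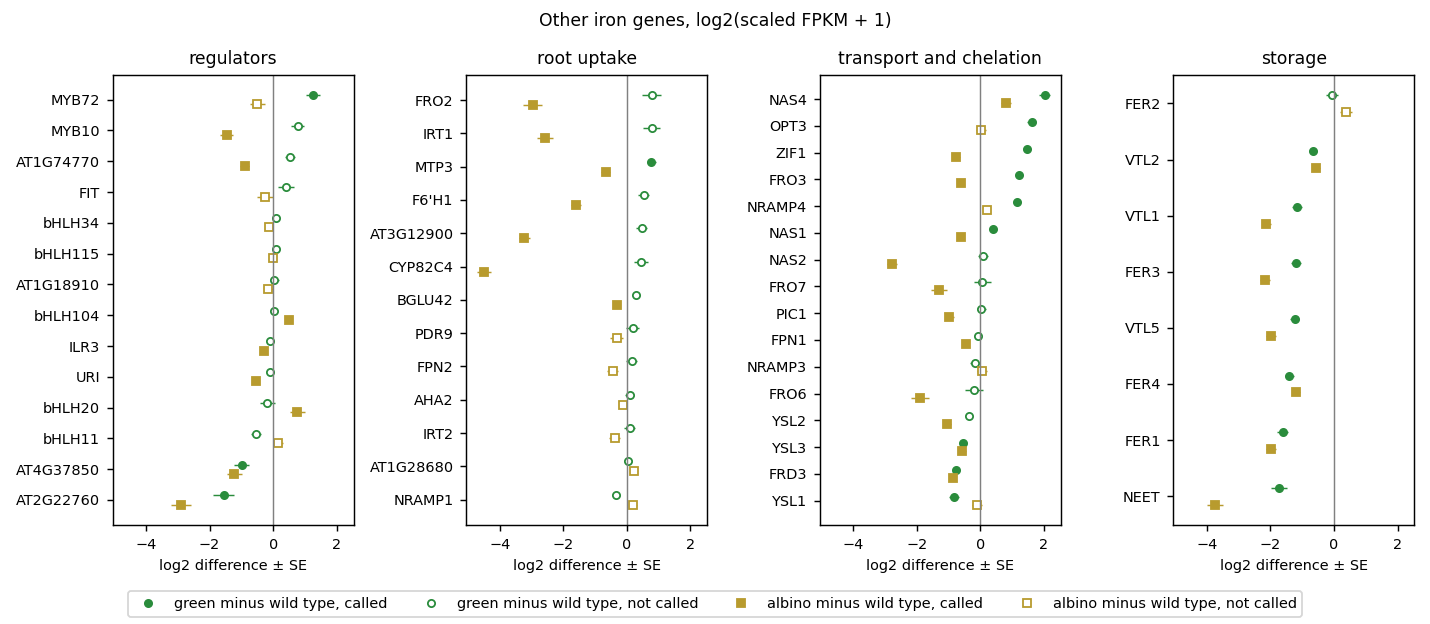
Differences of 51 tested iron genes other than the 9 regulators, as green minus wild type (circles) and albino minus wild type (squares) on the log2(scaled FPKM + 1) scale with ± 1 SE; filled symbols passed limma at adjusted p < 0.05. Storage genes other than FER2 lie below 0 in both comparisons, while root uptake genes lie near or above 0 in green and reach -4.49 (CYP82C4) in albino seedlings.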

How the data were processed

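Expression of 32833 genes was deposited by the authors as log2 values in a single table, for 9 poly(A) libraries of a stranded kit per the labels' protocols. FastQC, HISAT2, StringTie and TAIR10 are named without versions, per the submitters' processing notes; read counts were not used here. Read from the values, they are log2(FPKM times a library factor + 1): undoing the factor puts 67.0% to 72.3% of values with scaled FPKM under 10 on a grid of 6 decimals (within 0.1 steps), against 19.4% to 20.6% if it followed the log. The factor ran from 0.781 (albino) to 1.12.

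The 9 members and the gene lists were chosen with earlier results of these data known. The 19731 genes that reached a scaled FPKM of 1 in 3 or more libraries were fitted with limma 3.58.1 (R 4.3.3) with a trend and 1 mean per group. Benjamini-Hochberg adjustment was made per comparison, with calls at 0.05. The fit was also run on simulated data, with few genes changed and the same spread in every group. The albino comparisons, with far more called genes, differ from that setting. All members passed the filter. Named besides them were up to 4 called genes with the largest difference per list and comparison, the 8 genes most like the bHLH Ib and IMA profile (mean of at least 5 in a group), 2CPA and 2CPB; other names were chosen after their values were seen. TAIR10.1 matched 32548 identifiers and not 285; the files hold no coordinates.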

Additional observations from a re-analysis of the deposited data

Results flagged for a closer look

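ZIF1, FRO3, MTP3 and NAS1 were called higher in green and lower in albino seedlings against the wild type, and the direct comparison of albino with green seedlings passed the test for each (limma, Benjamini-Hochberg). The albino minus green difference on the log2 scale was -2.22 ± 0.12 for ZIF1 (adjusted p = 3.47e-06), -1.85 ± 0.09 for FRO3 (adjusted p = 2.90e-06), -1.44 ± 0.14 for MTP3 (adjusted p = 5.28e-05) and -1.01 ± 0.10 for NAS1 (adjusted p = 4.74e-05). Against the wild type, ZIF1 was at 1.45 ± 0.12 in green and -0.77 ± 0.12 in albino seedlings (adjusted p = 0.000315 and 0.000550), and FRO3 at 1.22 ± 0.09 and -0.63 ± 0.09 (adjusted p = 0.000248 and 0.000471). MTP3 was at 0.77 ± 0.14 and -0.67 ± 0.14 (adjusted p = 0.00828 and 0.00354), and NAS1, a nicotianamine synthase, at 0.39 ± 0.10 and -0.62 ± 0.10 (adjusted p = 0.0327 and 0.000593). With TPM the albino calls against the wild type were lost for ZIF1 (-0.34, adjusted p = 0.0615), FRO3 (-0.17, adjusted p = 0.201), MTP3 (-0.35, adjusted p = 0.115) and NAS1 (-0.17, adjusted p = 0.255). The green call of NAS1 was also lost with TPM (adjusted p = 0.0987), with only the 6 libraries compared (0.0794) and with the replicate number as a block (0.0505). It was lost too with 6 of the 9 libraries left out in turn (0.0561 to 0.105), its difference staying between 0.34 and 0.46. The albino minus green calls of all 4 genes passed under every alternative run. The 9 regulators carry no test and are not considered here.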

How the results depend on the processing

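Alternatives changed the pseudocount (0.1 or 5), the filter, the scaling, the fit and each library in turn. Of the differences of the 9 regulators, 266 kept their value within 1 SD, 29 moved by more and 2 changed sign. The 266 include changes of filter or fit, which leave a difference as it is. With a library left out all 243 stayed within 1 SD. That was fixed in advance, as a library left out of these groups cannot move a mean that far. Both sign changes were under TPM in albino against wild-type seedlings, for BTS (0.079) and bHLH101 (0.0054), where 4 regulators instead of 8 were lower without overlap. TPM also raised the other iron genes called higher to 9 (from 3) in albino against wild-type and to 13 (from 5) in albino against green seedlings, turned MES12 (0.17, albino against wild type), AT4G37850 (0.13) and FER1 (0.084, both albino against green), and moved the median of all genes to 0.50, 0.46 and 0.04 in albino against wild-type, albino against green and green against wild-type seedlings. OPT3 in albino against wild-type seedlings was at 0.48 and called higher under TPM (adjusted p = 0.0158), and at -0.050 with median-of-ratios scaling. With a library left out, differences ran from -0.10 to 0.11 for that gene, and in green against wild-type seedlings from -0.45 to 0.20 for FRO6, -0.17 to 0.39 for FRO7 and -0.093 to 0.22 for NAS2; none of these passed. Other iron genes called higher and lower ran from 6 to 9 and 9 to 13 in green against wild-type seedlings. In albino against wild-type seedlings they ran from 2 to 4 and 29 to 32. In albino against green seedlings they ran from 5 to 6 and 27 to 30. The regulators without overlap ran from 9 to 9, 8 to 9 and 9 to 9 in the same comparisons. A library left out can only keep or raise that last count. Over all genes, calls in green against wild-type seedlings were 733 higher and 1018 lower, but 431 and 640 with only the 6 libraries compared, 424 and 606 without wild-type replicate 3 and 449 and 658 without green replicate 2; those higher in albino against green seedlings were 3648, but 2295 without albino replicate 2. The cause was not tested. A fit with the replicate number as a block gave the same counts of iron genes (8 and 12, 3 and 31, 5 and 30), but MYB10 then passed in green seedlings (adjusted p = 0.0152) and NAS1 did not (adjusted p = 0.0505). MYB10 also passed there with a pseudocount of 5 (adjusted p = 0.0345) and without wild-type replicate 2 (0.0494) or green replicate 1 (0.0468), and AT1G74770 with a pseudocount of 5 (0.0490) and without green replicate 2 (0.0330). The labels do not say what a replicate number shares. Deviations of same-numbered libraries had r from -0.15 to 0.28, over 0.1 in 3 of 9 pairs. Those of differently numbered libraries had r from -0.36 to 0.15, over 0.1 in 2 of 18 pairs. Whether the numbers pair the samples cannot be told from these values. Without read counts, the precision of low levels, such as those of MYB72, is unknown.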
